A study of Taeniopygia guttata with 21 samples.

Results

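The genes described here are 38 transcription factors and co-activators of the homeobox, T-box, forkhead, SOX and GATA families in the embryonic skin of the zebra finch (Taeniopygia guttata, a songbird). They were chosen by name and by mean level over all libraries, with earlier results of these data known. Symbols that open with the letters of these families matched 67 of 18202 genes in the table, of which 8436 carry a symbol. Of the 67, 9 were set aside by name: FOXB1, SOX10, SOX21, LMX1A, PAX3, DLX1, PITX1, SALL1 and GATA5. A further 17 had a mean below 10 normalised reads over the 21 libraries. TBXA2R was left out because it encodes a thromboxane receptor and shares only its first letters with the T-box genes. The 38 described are 8 forkhead genes, 7 SOX genes, 5 T-box genes, 5 EYA and SIX2 genes, 3 LIM homeobox genes, 3 MEOX and BARX genes, 2 each of the IRX, DLX and MSX, and GATA families, and PITX3. The mean normalised read count was 16.4 in BARX1, 22 in SOX14 and 23.2 in SOX7, which lay just inside the limit, and 7.39 in FOXI1, 6.35 in FOXL2 and 5.39 in NKX6-3, which lay just outside it.

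Many proteins of these families are positional regulators of the embryo, though not all of them. T-box, homeobox, forkhead and SOX factors bind DNA through a domain shared within each family. Many are switched on in restricted territories of the embryo and set which genes a patch of mesenchyme, epithelium or muscle can use. EYA proteins are co-activators that work with homeobox factors of the SIX2 kind, LIM homeobox proteins act with LDB cofactors, and IRX proteins belong to the TALE class of homeobox factors. In the trunk, members of these families are known for roles in the dermomyotome, the lateral plate and its body wall, cartilage, blood vessels and the dermis that carries feathers.

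Skin was dissected from wild-type embryos at stage HH28 at 7 locations with 3 libraries each. The 9 dorsal libraries came from anterior, saddle and posterior skin of the back, and the 12 ventral libraries from 4 locations of the belly side, named ventral anterior, ventral-most, flank and ventral posterior. The study was designed to look for molecules restricted to skin that will later form colour domains. The libraries of a location carry the numbers 3, 8 and 11, and every location has the same 3 numbers. The labels do not say whether a number is an embryo, a pool or a day, nor the sex of the embryos, so p-values measure the spread between these samples. The main tests did not pair libraries by number, so their p-values take in the spread between numbers. Libraries of the same number deviated together, as given further on, so the 9 dorsal and 12 ventral libraries are not all independent samples.

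Values are normalised read counts, that is reads per gene divided by a size factor of the library. They are not corrected for gene length, so levels are compared between samples and not between genes. Library totals recovered from the table ran from 12.9 to 23.0 M reads (M, mega; median 18.6). Reads carry no molecular identifiers and are not independent molecules. Of 17 epidermal genes listed, 10 were in the table, all 10 had reads, and their summed level was 21462 to 43779 in dorsal and 8583 to 20255 in ventral libraries, with no overlap. Skeletal muscle genes summed to 76.6 to 6526 normalised reads in dorsal and 120 to 11886 in ventral libraries (9 genes), so pieces of skin differed in the muscle RNA they carried. In whole pieces of skin, fewer cells of a type and less RNA per cell cannot be told apart.

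Each gene was tested on log2(value + 1) with limma, in a fit over all 14005 genes with at least 10 normalised reads in at least 3 libraries. A gene is called when its Benjamini-Hochberg adjusted p over those genes was below 0.05. Fold changes (log2FC, each with its standard error, SE) are differences of mean log2(value + 1), and because 1 is added, changes of low genes come out smaller than they are. All 38 members passed the filter. Of these, 23 reached 10 normalised reads in every library and 15 in 3 to 20 of them.

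Members ranged between nearly even levels over the skin and levels high at a few places. A difference among the 7 locations was called in 19 of the 38 members (50%), against 15.4% of all genes tested. The highest location mean of a member exceeded its lowest by 0.24 to 7.11 on the log2 scale, with a median of 2.82, against a median of 0.72 over all genes tested. Libraries of the same location also spread more, with a median SD within a location of 0.67 for members and 0.36 for all genes. With the replicate number as a block, 26 members and 30.0% of all genes were called. The added members were EYA2, FOXO3, MEOX1, PITX3, TBX2, TBX15 and TBX20.

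At one end stood FOXN3, a forkhead repressor, and EYA3, a co-activator with phosphatase activity, whose ranges over the locations were 0.24 and 0.29. EYA3 had 1325 ± 234 normalised reads in dorsal and 1287 ± 208 in ventral libraries (SD, n = 9 and 12), with a log2FC of 0.04 (SE 0.12, adjusted p = 0.881). FOXN3 lay between 759.9 and 1046 normalised reads in all 21 libraries. At the other end, DLX6, LHX8, TBX20, LHX9 and LHX6 ranged over more than 6 on the log2 scale. By mean log2 value, 11 members (28.9%) were highest in ventral-most skin and 8 (21.1%) in ventral anterior skin, where 14% and 13.7% of all genes tested were highest. Only SOX14 and TBX15 were highest in dorsal anterior skin, the highest location of 16.8% of all genes. The genes set aside by name are outside these counts, which therefore do not describe where the families as a whole were highest.

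**Figure D1:**
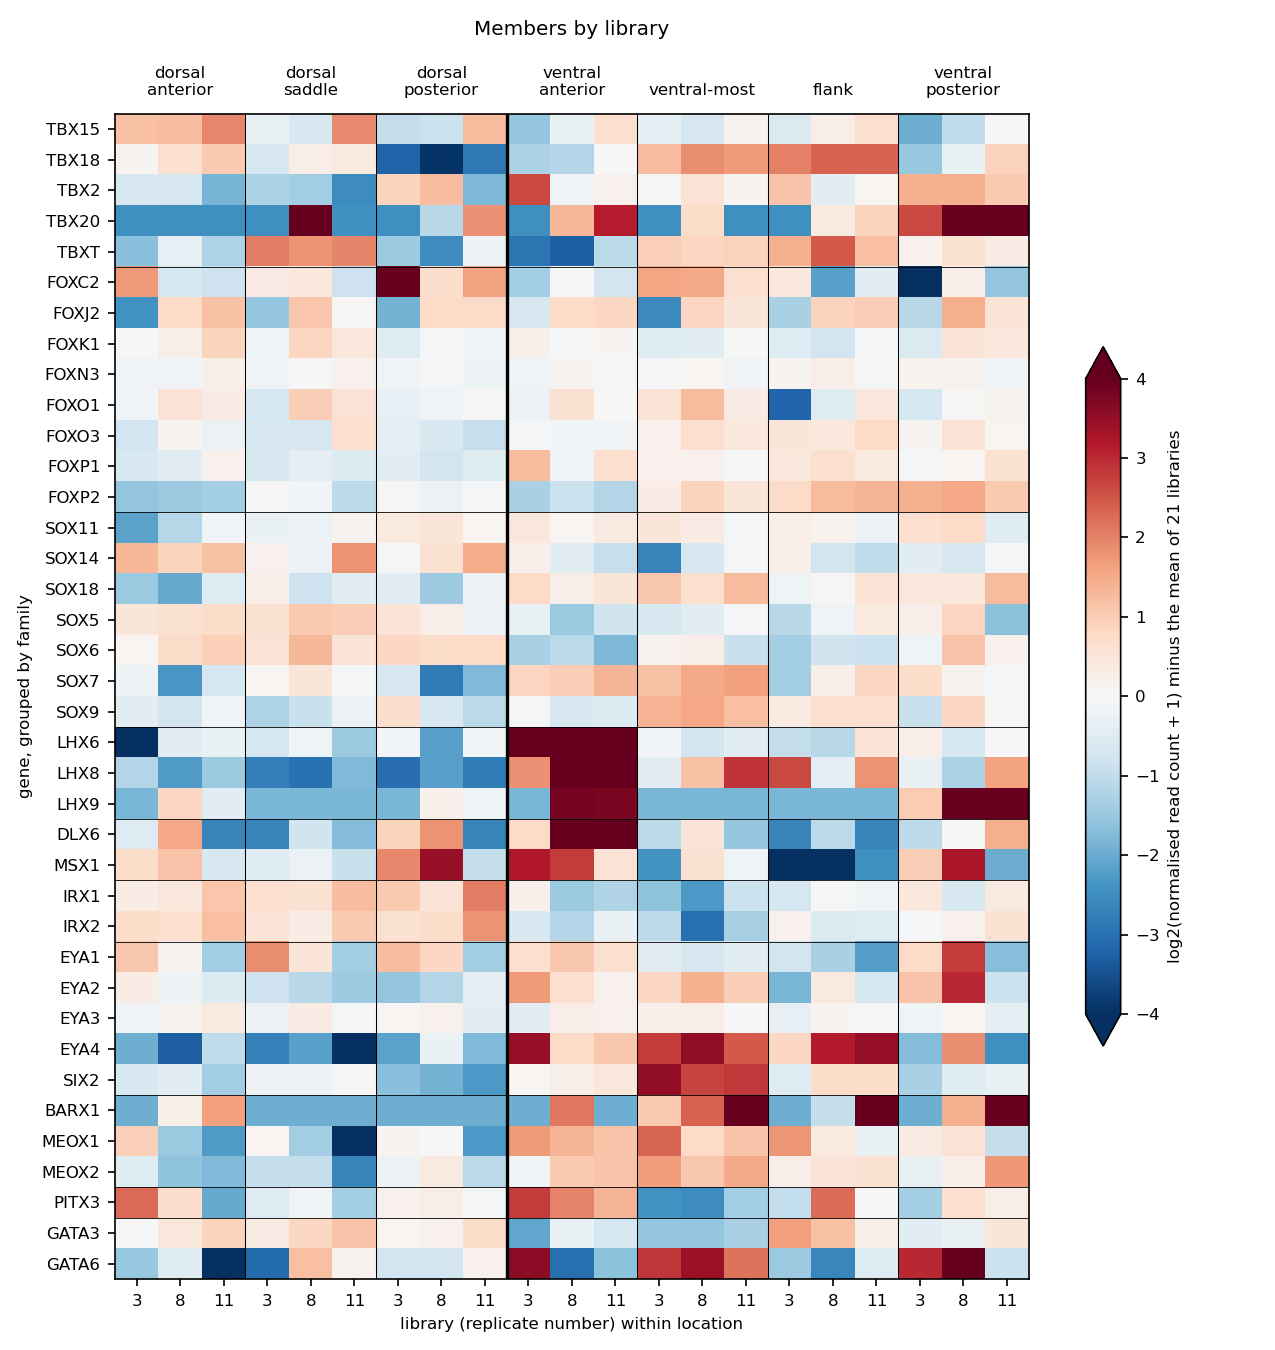
Heat map of the 38 members (rows, grouped by family) in the 21 libraries (columns, 3 per location with their replicate numbers, dorsal locations left of ventral ones). Colour is log2(normalised read count + 1) minus the gene's mean over all libraries, capped at 4 either way. LHX8 and EYA4 are lower on the back than in most ventral libraries, with overlap in ventral posterior skin. TBXT is high in the saddle and flank, LHX6 in ventral anterior skin, and FOXN3 and EYA3 are nearly flat.

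Most of the members that differed between back and belly were lower in dorsal skin, among them LHX6, LHX8, MEOX1, MEOX2, TBX2, TBX18, EYA2 and EYA4, while IRX1, IRX2, SOX5 and SOX6 were higher. Dorsal against ventral skin, 21 of 38 members were called (55.3%), against 17.2% of all genes tested. Of these, 6 were higher in dorsal skin (background 9.31%) and 15 were lower (background 7.89%). The median log2FC was -0.75 over the members and 0.0012 over all genes, and the median size was 1.31 against 0.22. The 9 genes set aside by name are outside these counts and medians, which therefore do not describe the direction of the families as a whole. No member, and 0.878% of all genes, had dorsal and ventral values that did not overlap at all. With the replicate number as a block 23 members and 29.2% of all genes were called.

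**Figure D2:**
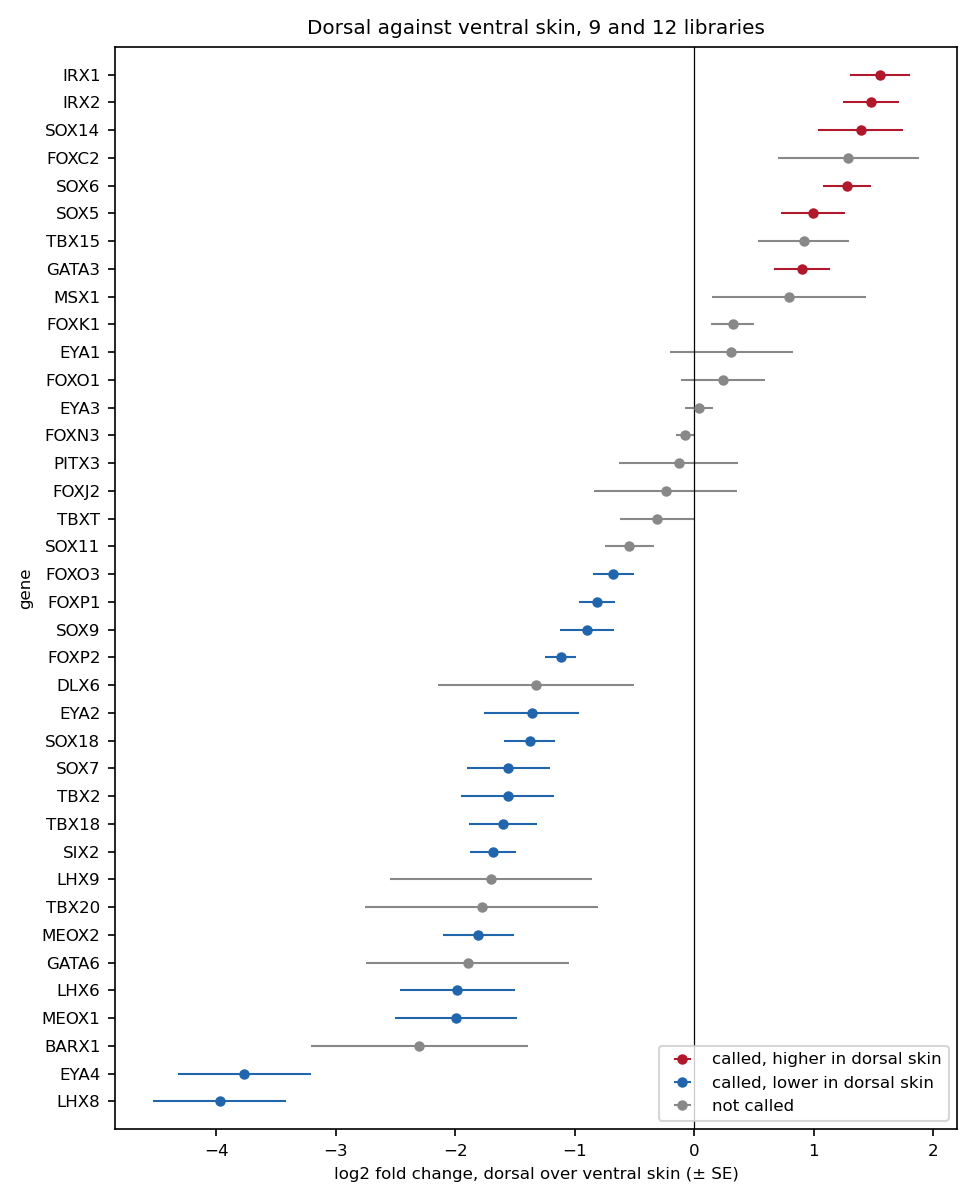
Log2 fold change of each member (rows), dorsal over ventral skin on log2(value + 1), with bars of 1 SE of the limma fit over 9 and 12 libraries. Red points are called higher, blue points called lower and grey points not called. The 15 blue members run from LHX8 (-3.97) to FOXO3 (-0.68).

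The IRX genes led the members that were higher on the back. IRX1 and IRX2 are Iroquois homeobox genes, known for patterning of ectoderm, limb and nervous tissue, and lie beside each other on chromosome 2 (IRX2 at chr2:91774692-91780162 and IRX1 at chr2:92289876-92291960 as the table gives them, in a build not given in the sources used here). IRX1 had 1838, 2396 and 6228 normalised reads (lowest, median and highest) in dorsal libraries, against 300.5, 941 and 1999 in ventral libraries. IRX2 had 1216, 1634 and 3411 in dorsal libraries, against 121, 676 and 1521 in ventral libraries. In both genes every ventral library outside ventral posterior skin lay below all dorsal libraries. The log2FC was 1.55 for IRX1 (SE 0.25, adjusted p = 0.000303) and 1.48 for IRX2 (SE 0.23, adjusted p = 0.000234).

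GATA3 is a zinc finger factor of skin epithelium and hair follicles in mice. It had 264, 364 and 592 normalised reads in dorsal libraries, against 62.3, 207 and 829.7 in ventral libraries (lowest, median, highest). Its ventral values split by place: the flank libraries held 829.7, 602 and 316 normalised reads, and ventral-most libraries 90.8, 89.9 and 107. The log2FC was 0.90 (SE 0.23, adjusted p = 0.011), and it fell to 0.54 (adjusted p = 0.209) without the ventral-most libraries, a setting chosen after seeing the data. GATA6, known from endoderm and heart, had 50.7 ± 46 normalised reads in dorsal and 405 ± 542 in ventral libraries and was not called (log2FC -1.90, SE 0.85, adjusted p = 0.144). The summed epidermal level given above was likewise higher in dorsal libraries, and 9 of the 10 epidermal genes were called higher in dorsal skin. The part of the epidermal share in the results for IRX1, IRX2 and GATA3 was not tested.

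The SOX members differed in direction, and SOX10 and SOX21, set aside by name, are not among them. The SOXD genes SOX5 and SOX6, which act together in cartilage and also in the nervous system and pigment cells, were higher in dorsal skin. SOX6 (GSZG0011512 in the table, chr5:10806780-11038531) had 197, 317 and 474 normalised reads in dorsal libraries, against 53.4, 106 and 413 in ventral libraries (lowest, median, highest), with a log2FC of 1.28 (SE 0.20, adjusted p = 0.000229). SOX5 had 185, 338 and 455 in dorsal libraries, against 69.7, 171 and 401 in ventral libraries, with a log2FC of 0.99 (SE 0.27, adjusted p = 0.0148). SOX14, a SOXB repressor, had 15, 33.5 and 63.6 in dorsal libraries, against 2, 11.7 and 20.9 in ventral libraries, with a log2FC of 1.39 (SE 0.36, adjusted p = 0.0106). In each of these genes every dorsal library lay above the ventral median, and the groups overlapped. The SOX5 call ended without the ventral anterior libraries (log2FC 0.85, adjusted p = 0.0536), again a setting chosen after seeing the data.

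SOX9, the SOXE gene that starts the cartilage programme, was lower in dorsal skin, opposite to SOX5 and SOX6. It had 172, 266 and 656 normalised reads in dorsal libraries, against 215, 583 and 1171 in ventral libraries (lowest, median, highest). The ventral-most libraries held 1051, 1171 and 937 and stood above every other library of the study. The log2FC was -0.90 (SE 0.23, adjusted p = 0.00956), and it was -0.57 (adjusted p = 0.174) without the ventral-most libraries. Of the 5 tested cartilage genes that are not members, COL11A1 and CNMD were higher in dorsal skin and ACAN, COL2A1 and HAPLN1 were not called. Over 6 cartilage genes that are not members, 1 of them below the filter, the summed level was 8681 to 16811 normalised reads in dorsal libraries and 1500 to 18334 in ventral libraries. The 5 Schwann cell and neural crest genes, none of them members, summed to 6196 to 9647 normalised reads in dorsal and 2555 to 6232 in ventral libraries. Of these, TFAP2B, PAX3 and SOX10 were called higher in dorsal skin, and the median log2FC over the 5 was 2.20. The part of cartilage, Schwann cell or neural crest RNA in the SOX5, SOX6 and SOX9 results was not tested.

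SOX7 and SOX18 are SOXF genes, known as factors of blood and lymph vessel endothelium, and both were lower in dorsal skin. SOX18 had 66.1, 188 and 319 normalised reads in dorsal libraries, against 241, 387 and 656 in ventral libraries, with a log2FC of -1.38 (SE 0.22, adjusted p = 0.00022). SOX7 had 1.57, 10.8 and 24.7 in dorsal libraries, against 6.15, 32.3 and 55.9 in ventral libraries, with a log2FC of -1.55 (SE 0.35, adjusted p = 0.00412). In both genes every dorsal library lay below the ventral median. Of the 8 other endothelial genes tested, ERG, FLT1 and KDR were also lower in dorsal skin and 5 were not called. These 8 genes summed to 1349 to 4819 normalised reads in dorsal and 1296 to 6775 in ventral libraries. The part of vessel content in the SOX7 and SOX18 results was not tested. SOX11, a SOXC gene of progenitor cells, had 2654 ± 1108 normalised reads in dorsal and 3539 ± 839.6 in ventral libraries and was not called (log2FC -0.54, SE 0.20, adjusted p = 0.0773).

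**Figure D3:**
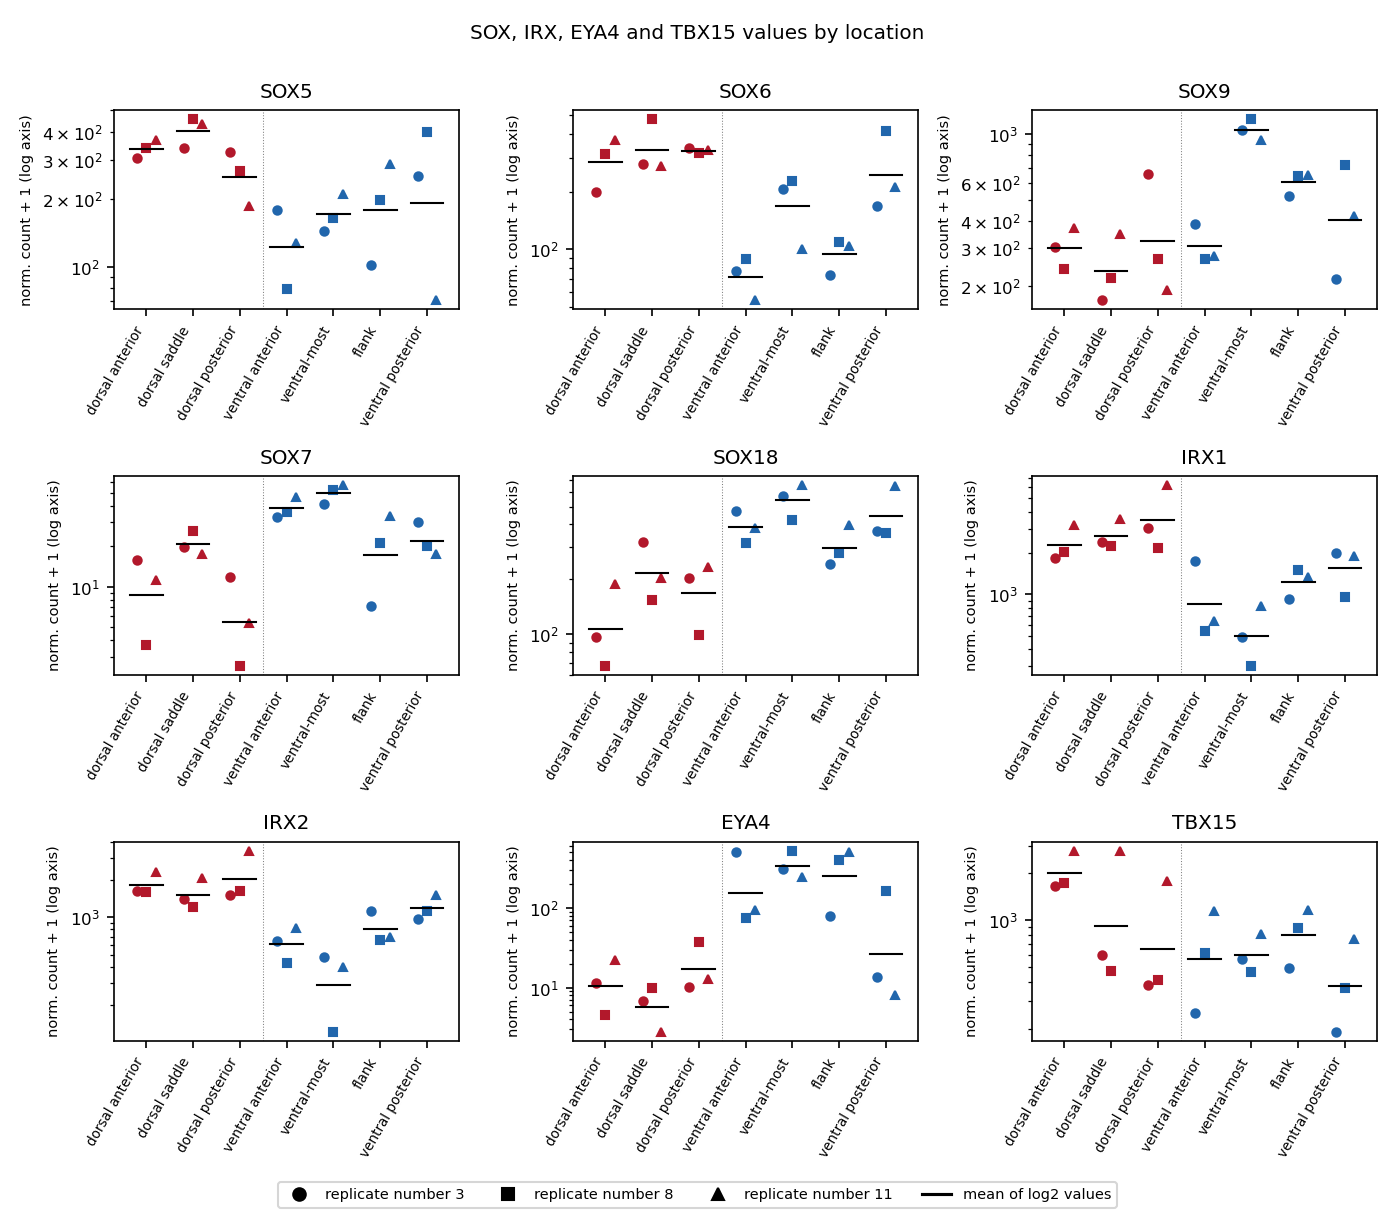
Normalised read counts plus 1 (log axis) of SOX5, SOX6, SOX9, SOX7, SOX18, IRX1, IRX2, EYA4 and TBX15 in each library by location, dorsal (red) left of ventral (blue). Point shape is the replicate number and the black line is the mean of the log2 values. SOX5, SOX6, IRX1 and IRX2 ran higher in dorsal skin, and SOX9, SOX7 and SOX18 peaked in ventral-most skin.

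The LIM homeobox genes LHX8 and LHX6, which are known from the jaw, teeth and forebrain neurons, were both lower in dorsal skin, though in different patterns. LHX8 (GSZG0013447, chr8:27787916-27798943) had the largest fold change of the members. It reached 10 normalised reads in 11 libraries, all ventral, and so passed the filter only through the side where it was high. It had 1.66, 3.53 and 8.76 normalised reads in dorsal libraries, against 8.21, 70.9 and 1130.2 in ventral libraries (lowest, median, highest), with a log2FC of -3.97 (SE 0.55, adjusted p = 7.82e-05). All dorsal values lay below all ventral ones except that of ventral posterior library 8, at 8.21. LHX6 had 0, 18.5 and 23.2 in dorsal libraries, against 11.1, 23.8 and 681 in ventral libraries, with a log2FC of -1.98 (SE 0.48, adjusted p = 0.00762). The LHX6 difference rested on ventral anterior skin, where the libraries held 681, 513 and 558 normalised reads, while every other ventral library held 11.1 to 36.6. Without the ventral anterior libraries the log2FC was -0.77 for LHX6 (adjusted p = 0.408) and -3.13 for LHX8 (adjusted p = 0.000753).

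LHX9, a regulator of gonad and limb growth, stayed low outside ventral anterior and ventral posterior skin. Its ventral anterior libraries held 0, 49.7 and 48 normalised reads and its ventral posterior libraries 6.27, 64.3 and 1587. In all 9 libraries of saddle, ventral-most and flank skin it had 0 reads. LHX9 reached 10 normalised reads in 4 libraries, all ventral, and passed the filter only through them. The 3 ventral posterior libraries differed widely from each other, and the dorsal against ventral log2FC of -1.70 (SE 0.85, adjusted p = 0.195) was not called. Among 8 cofactor genes of LIM homeobox proteins, LMO4 was higher in dorsal skin (log2FC 0.84, SE 0.20, adjusted p = 0.00635). LDB1 was lower (-0.65, SE 0.12, adjusted p = 0.00107), as was LMO2 (-0.63, SE 0.19, adjusted p = 0.0302). The other 5 were not called, and the median over the 8 was -0.16. Of all genes tested, 17.2% were called in either direction.

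EYA4 and SIX2 had the largest fold changes of the 5 EYA and SIX2 genes. EYA4 (GSZG0009517, chr3:58640188-58685595), a co-activator known from hearing and heart muscle, had 1.82, 9.13 and 36.1 normalised reads in dorsal libraries, against 7.18, 203 and 523 in ventral libraries (lowest, median, highest). The overlap came from ventral posterior skin, whose libraries held 12.5, 163 and 7.18. The log2FC was -3.76 (SE 0.56, adjusted p = 0.000135), and it was -4.56 (adjusted p = 2.02e-05) without the ventral posterior libraries. SIX2, a homeobox factor of kidney progenitors and of connective tissue, had 55.8, 185 and 292 in dorsal libraries, against 113, 353 and 3260.5 in ventral libraries, with a log2FC of -1.68 (SE 0.19, adjusted p = 1.17e-05). The ventral-most libraries made the upper end of SIX2, and without them its log2FC was -0.92 (adjusted p = 0.00814). EYA2 had 26 ± 12.1 normalised reads in dorsal and 89.7 ± 88.9 in ventral libraries (log2FC -1.36, SE 0.40, adjusted p = 0.0235). That call ended without dorsal posterior library 3 (-1.27, adjusted p = 0.0533), without the ventral anterior libraries (-1.27, adjusted p = 0.0563) and without the ventral-most libraries (-1.19, adjusted p = 0.1). EYA1 had 501 ± 364 in dorsal and 483 ± 605 in ventral libraries and was not called (log2FC 0.31, SE 0.52, adjusted p = 0.768). Of the partners of this network, SKI and SKIL were tested and not called (log2FC 0.04 and 0.31).

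MEOX1 and MEOX2 are homeobox genes of the somite and its derivatives, and both were lower in dorsal skin. MEOX2 had 42.7, 143 and 353 normalised reads in dorsal libraries, against 225, 497 and 916 in ventral libraries, with a log2FC of -1.81 (SE 0.30, adjusted p = 0.000338). MEOX1 had 9.99, 65.4 and 333 in dorsal libraries, against 87.2, 333 and 869 in ventral libraries, with a log2FC of -1.99 (SE 0.51, adjusted p = 0.0111). MEOX1 also moved with the replicate number, and within each number its dorsal mean lay below its ventral mean. BARX1, a homeobox gene of the stomach wall and the jaw, had 1.61 ± 3.71 in dorsal and 27.5 ± 41.7 in ventral libraries. It was not called (log2FC -2.30, SE 0.91, adjusted p = 0.0948) except with the replicate number as a block (adjusted p = 0.0261). The homeobox genes MSX1 (0.79, SE 0.64, adjusted p = 0.475) and DLX6 (-1.33, SE 0.82, adjusted p = 0.319) were not called between the sides, and the sign turned without the flank libraries for MSX1 (-0.31) and without the ventral anterior libraries for DLX6 (0.14).

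Of the T-box genes, TBX2 and TBX18 were lower in dorsal skin. TBX18 (GSZG0009656, chr3:79589224-79608838), a factor of somite, heart and urinary tract mesenchyme, had 3.14, 66.5 and 129.5 normalised reads in dorsal libraries, against 20.9, 133 and 323 in ventral libraries (lowest, median, highest). The log2FC was -1.60 (SE 0.28, adjusted p = 0.000671), with wide differences inside both sides that are given further on. TBX2, a repressor of limb and heart development, had 399, 953 and 5356 in dorsal libraries, against 1707, 2991 and 14398 in ventral libraries, with a log2FC of -1.56 (SE 0.39, adjusted p = 0.00948). The overlap in TBX2 came from dorsal posterior libraries 3 and 8, at 4208 and 5356. TBX15, which in mice marks dorsal dermis and sets the border between dorsal and ventral coat colour, had 381, 1652 and 2772 in dorsal libraries, against 191, 587 and 1157 in ventral libraries. Its log2FC of 0.92 (SE 0.38) was not called (adjusted p = 0.114) but was called with the replicate number as a block (adjusted p = 0.00306). TBX15 differed between replicate numbers: saddle skin held 594, 468 and 2764 in libraries 3, 8 and 11. TBXT (-0.31, SE 0.32, adjusted p = 0.591) and TBX20 (-1.78, SE 0.97, adjusted p = 0.249) were not called between the sides. TBXT depended on the ventral locations used: it was called lower in dorsal skin without the ventral anterior libraries (-1.16, adjusted p = 0.0122) and had a log2FC of 0.21 (adjusted p = 0.772) without the flank libraries.

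Among the forkhead genes, 3 of 8 were called, all lower in dorsal skin, against 7.89% of all genes tested called lower. The median log2FC over the 8 was -0.16. FOXP2, a repressor known from brain, lung and muscle, had 573, 1472 and 1778 normalised reads in dorsal libraries, against 710.3, 3060.1 and 5100.2 in ventral libraries, with a log2FC of -1.12 (SE 0.13, adjusted p = 1.59e-05). FOXP1, its close relative, had 2058, 2458 and 3900.2 in dorsal libraries, against 3119, 4201 and 8322 in ventral libraries, with a log2FC of -0.81 (SE 0.15, adjusted p = 0.00079). A single dorsal library, dorsal anterior 11 at 3900.2, kept the FOXP1 groups from separating. FOXO3, an insulin-responsive factor, had 116, 143 and 355 in dorsal libraries, against 204, 275 and 389 in ventral libraries, with a log2FC of -0.68 (SE 0.17, adjusted p = 0.00975). FOXC2, FOXJ2, FOXK1, FOXN3 and FOXO1 were not called, with log2FC of 1.29, -0.24, 0.32, -0.07 and 0.24. FOXC2, a factor of paraxial mesoderm and lymph vessels, had an SE of 0.59 (adjusted p = 0.154), with 499, 43.1 and 82.1 in dorsal posterior skin.

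Calls differed in how they stood up when a replicate number was left out, which removes 7 libraries. Dorsal against ventral skin, 10 of the 21 called members stayed called whichever of the numbers 3, 8 and 11 was left out: EYA4, FOXP1, FOXP2, IRX1, IRX2, LHX8, MEOX2, SIX2, SOX18 and SOX6. Without number 8, 10 calls ended, among them GATA3, LHX6, MEOX1 and TBX18. The log2FC of these genes was then 0.99, -2.29, -2.12 and -1.55, against 0.90, -1.98, -1.99 and -1.60 with all libraries. For SOX9, EYA2 and SOX7, whose calls also ended, it shrank to -0.67, -0.94 and -1.2. Without number 11, 7 ended, among them TBX2, and without number 3, EYA2, FOXO3 and SOX5 did. How many calls over all genes ended in these fits is not given here, so members cannot be set against other genes in this.

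Partner genes of these families, and other transcription factors listed beside them, also differed in part. These lists were chosen with earlier results of these data known. Of all genes tested, 9.31% were called higher and 7.89% lower in dorsal skin. Of 12 further homeobox and related genes of skin and body wall, 1 was higher (CUX1, log2FC 1.11, SE 0.12, adjusted p = 6.41e-06) and 6 were lower in dorsal skin. The lower ones with the smallest p were ISL1 (-3.12, SE 0.51, adjusted p = 0.000303) and SHOX (-2.99, SE 0.49, adjusted p = 0.000356). The corepressor genes CTBP1 and CTBP2 were each lower by 0.37 on the log2 scale (adjusted p = 0.00867 and 0.0388). Of 3 GATA cofactors tested, ZFPM2 was higher in dorsal skin (1.77, SE 0.37, adjusted p = 0.00291) and LMO2 was lower (-0.63, SE 0.19, adjusted p = 0.0302). The median over the 3 was -0.10. Of 3 TALE partner genes tested, only PKNOX2 was called, higher in dorsal skin (0.80, SE 0.20, adjusted p = 0.0104). Of 6 helix-loop-helix genes tested, TCF12 (-0.78, SE 0.12, adjusted p = 0.000188) and TWIST2 (-0.57, SE 0.15, adjusted p = 0.0132) were lower. TWIST1, TCF15, ID2 and ID3 were not called (0.39, 0.18, 0.03 and -0.54).

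Along the back, TBX18 was low at the posterior end, and FOXP2 was lower at the anterior than at the posterior end. Dorsal anterior against dorsal posterior skin, 2 of 38 members were called (5.26%), against 2.27% of all genes. Of these, 1 was higher (background 0.757%) and 1 was lower (background 1.51%). TBX18 had 66.5, 97 and 129.5 normalised reads in dorsal anterior libraries 3, 8 and 11, against 5.81, 3.14 and 7.66 in dorsal posterior libraries. The groups lay far apart, with saddle skin (38.3, 74.2 and 81.7) near the anterior level, and the log2FC was 3.93 (SE 0.52, adjusted p = 0.000367). FOXP2 had 573, 634 and 678 in dorsal anterior libraries, against 1778, 1472 and 1664 in dorsal posterior libraries, with a log2FC of -1.38 (SE 0.24, adjusted p = 0.00454). Neither gene's values overlapped between the ends. Both calls ended without replicate number 8 (TBX18 3.61, adjusted p = 0.132; FOXP2 -1.46, adjusted p = 0.146), and that of FOXP2 also without number 3 (-1.25, adjusted p = 0.0977). Summed epidermal genes reached 35390.4 to 43779 normalised reads in dorsal anterior and 21462 to 24801 in dorsal posterior libraries, and their part in these differences was not tested.

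With the replicate number as a block 4 members (10.5%) and 5.28% of all genes were called in this comparison. The added members were SOX11, lower in dorsal anterior skin (log2FC -1.44, adjusted p = 0.0433 with the block and 0.0561 without), and TBX15, higher there (1.62, adjusted p = 0.0184 with the block and 0.374 without). SOX11 had 660.2, 1336 and 2726 normalised reads in dorsal anterior libraries 3, 8 and 11, against 3870.5, 4085 and 3064 in dorsal posterior libraries, which did not overlap. TBX15 had 1652, 1731 and 2772 in dorsal anterior libraries, against 381, 409 and 1763 in dorsal posterior libraries. Within each number TBX15 was higher in the anterior library. The values of 5 members (13.2%) did not overlap between these locations, near the 16.2% of all genes.

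Along the belly, LHX6 and LHX8 were high at the anterior end, and FOXP2, SOX6 and TBXT were low there. Ventral anterior against ventral posterior skin, 5 of 38 members were called (13.2%), against 1.76% of all genes. LHX6 had 681, 513 and 558 normalised reads in ventral anterior libraries 3, 8 and 11, against 30.3, 15.1 and 24.6 in ventral posterior libraries, with a log2FC of 4.63 (SE 0.89, adjusted p = 0.0101). LHX8 had 76.9, 1130.2 and 783 in ventral anterior libraries, against 16.7, 8.21 and 66.7 in ventral posterior libraries, with a log2FC of 4.20 (SE 1.03, adjusted p = 0.0436). The LHX6 libraries agreed closely within the anterior location, whereas LHX8 was much lower in library 3 than in 8 and 11. Both calls ended without replicate number 8 and without number 11. The LHX8 call was marginal: it ended in 14 of the 21 fits that left out a single library, with a log2FC of 3.47 without ventral anterior library 8 (adjusted p = 0.216), 3.57 without ventral posterior library 8 (adjusted p = 0.191), and 5.40 and 5.0 without ventral anterior library 3 and ventral posterior library 11.

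FOXP2 had 710.3, 956 and 761 normalised reads in ventral anterior libraries, against 4629, 5100.2 and 3535 in ventral posterior libraries, with a log2FC of -2.44 (SE 0.24, adjusted p = 1.57e-05). It was the firmest of these calls and the single member called without each replicate number in turn. TBXT, known as brachyury, the factor of notochord and tail mesoderm, had 3.89, 2.76 and 16.3 in ventral anterior libraries, against 39.7, 54.8 and 44.1 in ventral posterior libraries, with a log2FC of -2.78 (SE 0.59, adjusted p = 0.0173; 0.0563 with edgeR on the recovered reads). SOX6 had 75.9, 88.3 and 53.4 in ventral anterior libraries, against 166, 413 and 211 in ventral posterior libraries, with a log2FC of -1.77 (SE 0.37, adjusted p = 0.0168). In each of these 3 genes the values at the ends did not overlap, as in 11 of the 38 members (28.9%), against 13.1% of all genes.

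Several of these calls lay near the threshold and ended when a single library was left out. TBXT was no longer called without ventral anterior library 3 (-2.53) or 8 (-2.34) or without ventral posterior library 3 (-2.88), 8 (-2.65) or 11 (-2.80), with adjusted p between 0.0526 and 0.105, and its log2FC was -3.45 without ventral anterior library 11. SOX6 was no longer called without ventral anterior library 11 (-1.56, adjusted p = 0.0909) or ventral posterior library 8 (-1.39, adjusted p = 0.0946). DLX6, a homeobox gene of jaw and limb, had 9.73, 1021 and 725 normalised reads in ventral anterior libraries, against 2.09, 5.48 and 16.4 in ventral posterior libraries. It was called with the replicate number as a block (log2FC 4.83, adjusted p = 0.0452) and not without it (adjusted p = 0.15), which made 6 members called with the block, against 4.21% of all genes. Summed skeletal muscle genes reached 3686 to 11886 normalised reads in ventral anterior and 148 to 6206 in ventral posterior libraries, and their part in these differences was not tested.

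The anterior-posterior contrast itself differed between back and belly for TBX18 and LHX6, 2 of 38 members (5.26%), against 0.828% of all genes. For TBX18 the contrast was 3.93 on the back and -0.51 on the belly, where ventral anterior libraries held 25.3, 26.7 and 63.2 normalised reads and ventral posterior libraries 20.9, 50.6 and 119. The difference between the contrasts was 4.44 (SE 0.74, adjusted p = 0.0087), and it was 5.06 without ventral posterior library 3 and 3.83 without ventral posterior library 11. For LHX6 the contrast was -0.98 on the back, where dorsal anterior libraries held 0, 18.5 and 20.3 and dorsal posterior libraries 23.2, 4.7 and 21.9, and 4.63 on the belly. The difference was -5.61 (SE 1.26, adjusted p = 0.0434; 0.0517 with edgeR). The LHX6 call ended in 14 of the 21 fits that left out a single library, with values of -6.36 to -4.16, the smallest size without dorsal anterior library 3. Both calls ended whichever replicate number was left out. With the replicate number as a block the same 2 members and 2.93% of all genes were called.

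**Figure D4:**
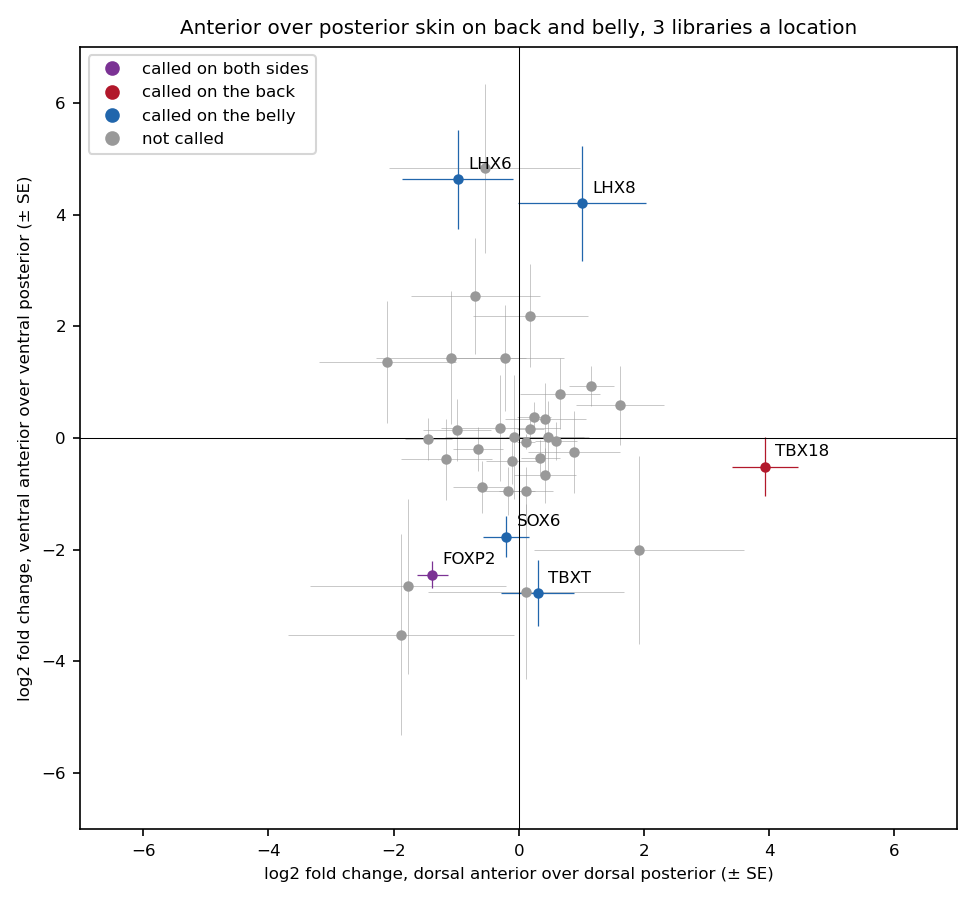
Log2 fold change of each member, anterior over posterior skin, on the back (horizontal axis) and on the belly (vertical axis), with bars of 1 SE. Colour shows on which side a member is called. TBX18 lies far to the right (3.93) near 0 on the belly, LHX6 and LHX8 lie high on the belly axis (4.63 and 4.20), and FOXP2 is lower at the anterior end on both sides.

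PITX3, a homeobox gene known from lens and midbrain neurons, did not pass the test between the sides. It had 27.4 ± 29.2 normalised reads in dorsal and 41 ± 46.4 in ventral libraries (log2FC -0.13, SE 0.50, adjusted p = 0.911).

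Dorsal saddle against the other dorsal skin, TBXT was called higher, 1 of 38 members (2.63%), against 0.143% of all genes tested for a difference either way and 0.0928% for higher levels, which are 20 and 13 genes. TBXT had 148, 125 and 139 normalised reads in saddle libraries, against 10.5, 28.2 and 14.4 in dorsal anterior and 12.4, 5.49 and 30.7 in dorsal posterior libraries, with a log2FC of 3.15 (SE 0.51, adjusted p = 0.0201). The saddle libraries agreed closely and lay above every other dorsal library. Leaving out any single saddle library ended the call, with a log2FC of 3.09, 3.21 and 3.14 without library 3, 8 and 11 (adjusted p = 0.125, 0.0853 and 0.0977). It also ended without dorsal posterior library 3 (3.14, adjusted p = 0.0523) or 8 (2.87, adjusted p = 0.0505) or dorsal anterior library 3 (3.0, adjusted p = 0.0592). The call ended whichever replicate number was left out, with a log2FC of 2.93, 3.13 and 3.39 without number 3, 8 and 11 (adjusted p = 0.637, 0.607 and 0.0951). With the replicate number as a block the same member and 0.407% of all genes were called.

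Flank against the other ventral skin, 5 of 38 members were called (13.2%), against 3.05% of all genes. TBX18, TBXT, GATA3 and FOXP2 were higher in the flank (background 1.61%), and MSX1 was lower (background 1.44%). TBX18 had 256, 319 and 323 normalised reads in flank libraries, all above the other ventral libraries (20.9 to 229), with a log2FC of 2.08 (SE 0.43, adjusted p = 0.0123). TBXT had 95.9, 198 and 82.2 in flank libraries, against 2.76 to 68.9 in the other ventral libraries, with a log2FC of 2.07 (SE 0.48, adjusted p = 0.0249). GATA3 had 829.7, 602 and 316 in flank libraries, against 62.3 to 376 in the other ventral libraries, with a log2FC of 1.87 (SE 0.35, adjusted p = 0.00656). TBX18 and TBXT did not overlap with the other ventral libraries, and GATA3 did through flank library 11. FOXP2 had 2929, 4160.4 and 4421 in flank libraries, inside the span of the other ventral libraries, with a log2FC of 0.86 (SE 0.20, adjusted p = 0.0245). Its mean was highest in ventral posterior skin (4421.5), above the flank (3837), and lower in ventral-most (2580) and ventral anterior skin (809).

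MSX1, a homeobox repressor of limb, tooth and midline mesenchyme, had 19.7, 22.2 and 75.1 normalised reads in flank libraries, against 77.8 to 3963 in the other ventral libraries. Its log2FC was -4.41 (SE 0.97, adjusted p = 0.0184), with all flank libraries under all other ventral libraries. Flank values stood apart in 3 of the 38 members (7.89%), against 2.96% of all genes. Calls ended without flank library 8 for TBX18 (2.03, adjusted p = 0.0713), TBXT (1.69, adjusted p = 0.179), FOXP2 (0.79, adjusted p = 0.133) and MSX1 (-4.15, adjusted p = 0.106), without flank library 3 for TBXT (2.20, adjusted p = 0.0748), GATA3 (1.56, adjusted p = 0.0639) and MSX1 (-4.07, adjusted p = 0.105), and without flank library 11 for FOXP2 (0.75, adjusted p = 0.111). Without flank library 11 the log2FC of MSX1 was -5.01. DLX6 was added with the replicate number as a block (-3.61, adjusted p = 0.0483; 6 members and 7.29% of all genes called), with 0, 2.02 and 0 normalised reads in flank libraries. It was also low in ventral-most (1.19 to 8.17) and ventral posterior libraries (2.09 to 16.4), and ventral anterior libraries held 9.73 to 1021. All 5 calls ended without replicate number 3 and without number 8. The 6 cartilage genes that are not members summed to 1500 to 2970.1 normalised reads in flank and 4733 to 18334 in the other ventral libraries. The 8 neuron genes summed to 2023.5 to 4530.3 in flank and 921 to 2645 in the other ventral libraries, and the 4 mesothelium and kidney genes to 5970.4 to 12683 and 2821 to 7125. These sums do not stand for every gene of a list. Of 8 cartilage genes tested, members included, COL11A1 and CNMD were called lower in the flank (median log2FC -0.21). Of 6 neuron genes tested, 1 was called higher and 1 lower, STMN2 and NEFM between them (median 0.002). Of 3 mesothelium and kidney genes tested, BNC1 was called higher (median 0.057). The part of these lists in the flank differences was not tested.

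Ventral-most against the other ventral skin, SIX2 was called higher, 1 of 38 members (2.63%), against 0.678% of all genes. SIX2 had 3260.5, 1819 and 2005 normalised reads in ventral-most libraries, against 113 to 467 in the other ventral libraries. No other library of the study came near these values, and the log2FC was 3.06 (SE 0.29, adjusted p = 7.32e-05). The call ended without replicate number 8 (3.32, adjusted p = 0.131), and it held without number 3 or 11. With the replicate number as a block 5 members (13.2%) and 2.42% of all genes were called. The added members were GATA3 (-1.44, adjusted p = 0.0261), IRX2 (-1.54, adjusted p = 0.00702) and PITX3 (-2.88, adjusted p = 0.0466), lower in ventral-most skin, and TBX18 (1.22, adjusted p = 0.0497), higher there. TBX18 ventral-most libraries held 148, 229 and 202 normalised reads, below the flank and above the ventral anterior and ventral posterior libraries.

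**Figure D5:**
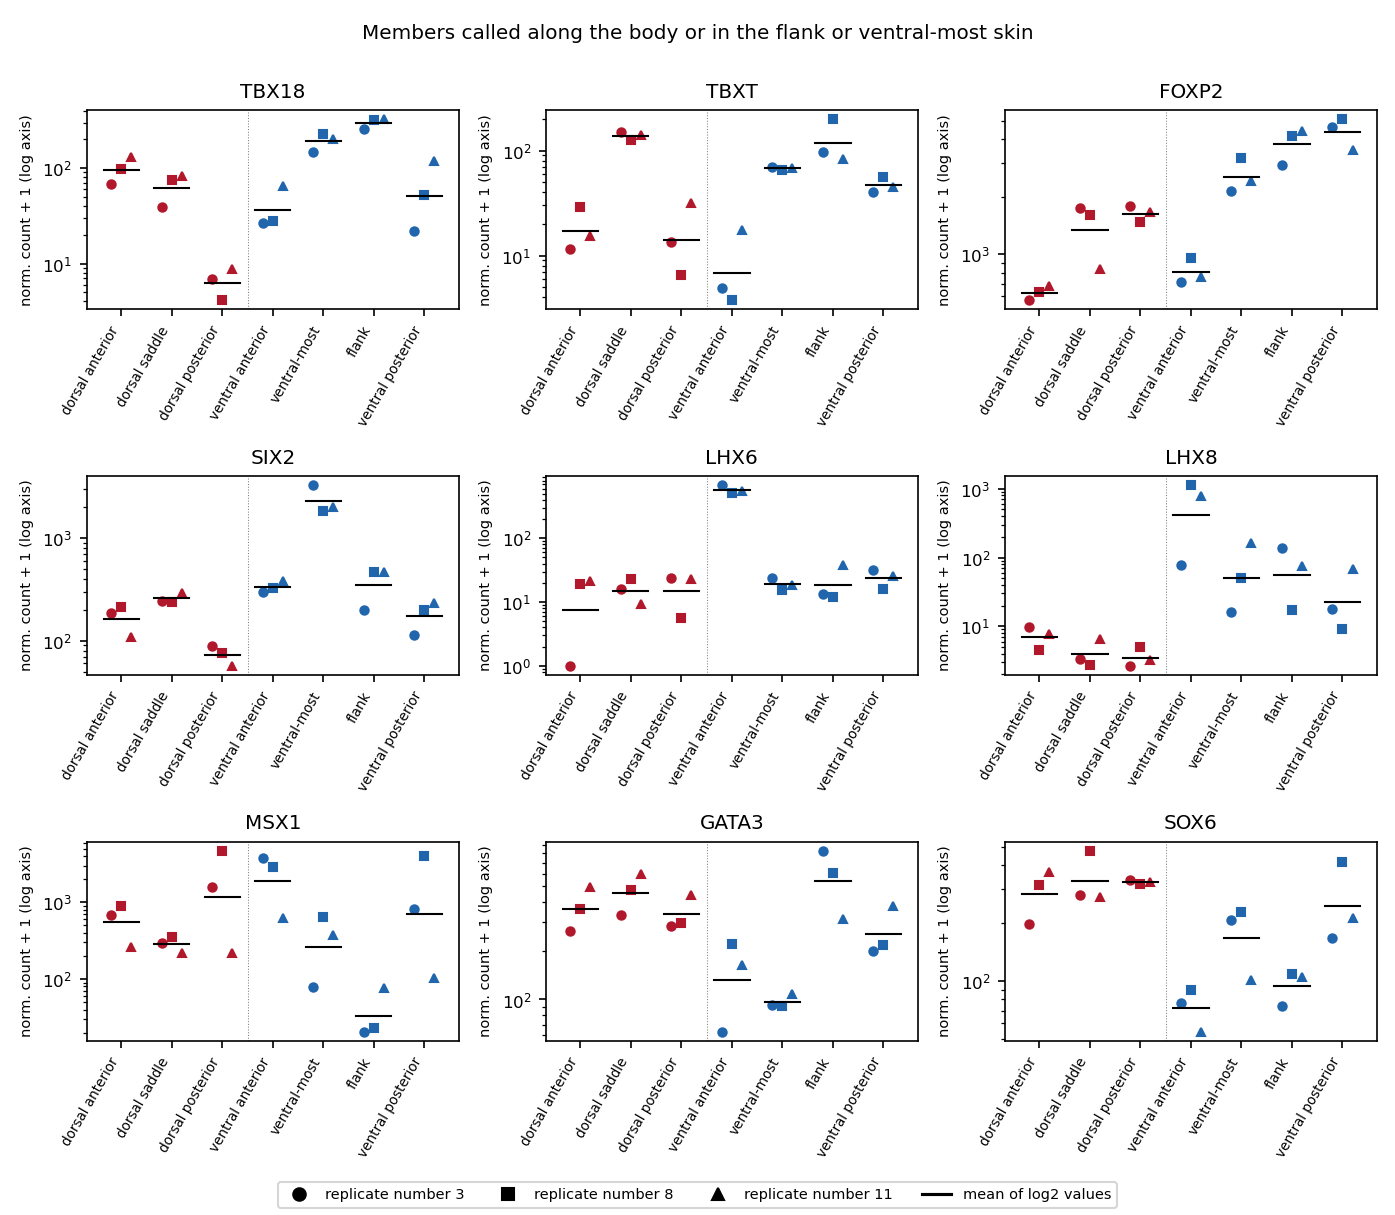
Normalised read counts plus 1 (log axis) of TBX18, TBXT, FOXP2, SIX2, LHX6, LHX8, MSX1, GATA3 and SOX6 in each library by location, dorsal (red) left of ventral (blue). Point shape is the replicate number and the black line is the mean of the log2 values. TBXT was higher in saddle than in other dorsal skin, and SIX2 ventral-most libraries (1819 to 3260.5) lay above all others.

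Over the 6 comparisons of sides, ends and single locations, 15 members were called in none and 15 in 1. FOXP2 was called in 4, and TBX18 and TBXT in 3 each. Calls per gene were not counted over all genes tested, so members cannot be set against other genes in this. In a few members the libraries of a location differed widely. TBX20, a heart and cranial motor neuron factor, had 0, 168 and 0 normalised reads in saddle libraries 3, 8 and 11 and 33.5, 272 and 108 in ventral posterior libraries. EYA1 reached 2287 in ventral posterior library 8 beside 567 and 101 in libraries 3 and 11. GATA6 had 805, 7.36 and 20.7 in ventral anterior libraries. For TBX20, EYA1 and GATA6 no difference between dorsal and ventral skin was detectable with 3 libraries a location.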

How the data were processed

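Total RNA from 21 skin samples was amplified with the SMART-Seq v4 kit (full-length cDNA from polyadenylated RNA) and made into Nextera XT libraries, per the labels' protocols. STAR 2.4.0, SAMtools, Picard, FastQC and DESeq2 are listed in the submitters' processing notes with no role. Genome build, read counter and use of strand are not given in the sources. The deposited values are a signal, reads of a gene scaled by the authors with 1 DESeq2 size factor a library, per the table's name and headers. Dividing each column by its smallest step gave whole reads for 100% of values within 0.01 reads, with 12.9 to 23.0 M reads (mega) a library. Recovered reads entered only the alternative count tests.

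Symbols came from the deposited names or, by Entrez identifier, from RefSeq (bTaeGut7.mat, names only). TBX15, TBX20, EYA4, SOX9 and IRX1 were named by Entrez identifier alone, and TBXT is deposited as T. No promoter, protein or genome sequence was used here. The naming rule gave 2 further genes that are not reported here, and all member counts leave them out.

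Tests ran in R 4.3.3 with limma 3.58.1 (trend and robust moderation) on log2(value + 1), on genes that reached 10 in 3 or more libraries, with 1 fit over the 7 locations and Benjamini-Hochberg adjustment over all 14005 genes. The method was tested on simulated data with no difference between replicate numbers and with changes only in genes of higher level. That run therefore does not cover the pairing of libraries or genes at low levels. Dorsal against ventral compares the mean of 3 with the mean of 4 location means, and each single location was set against the remaining locations of that side. The alternatives were a replicate block, other pseudocounts (0.5 and 5), other filters, TMM scaling, edgeR 4.0.16 and DESeq2 1.42.0 on recovered reads, only the libraries compared, and leaving out libraries, replicate numbers or locations. The last, except for the flank, were chosen after seeing the data.

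Libraries with the same number deviated together: the correlation of their deviations from the location means was over 0.1 in all 63 pairs (0.272 to 0.529, median 0.425) and in 0 of 126 pairs with different numbers. Because the deviations within a location sum to 0, the count for different numbers is not separate support for the pairing. By the same-number correlations the numbers pair the samples. Blocked values are given where they change a call between sides, ends or single locations. For any difference among the locations, only the added members are named.

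The members, gene lists and comparisons were chosen with earlier results of these data known. Named genes are the 4 markers of the set (TBX18, LHX8, EYA4, SOX6), the called members with the largest fold change in each comparison that had the same sign within each replicate number, those with the largest F, and in each family the highest mean and the smallest p. The remaining called members, and members named for their spread or for a value under the block, were added after their values were seen.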

Additional observations from a re-analysis of the deposited data

Results flagged for a closer look

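The contrast between anterior and posterior skin differed between the back and the belly for TBX18, by 4.44 on the log2 scale (SE 0.74, adjusted p = 0.0087 with limma): 3.93 on the back and -0.51 on the belly. The same difference of contrasts was -5.61 for LHX6 (SE 1.26, adjusted p = 0.0434): -0.98 on the back and 4.63 on the belly. Neither was called once replicate number 3, 8 or 11 was left out.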

How the results depend on the processing

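Counts of called members kept their size, within 1.5 times, under TMM scaling, and none of the 37 called fold changes turned its direction under any setting run. Among members not called between the sides, the sign turned without the flank for MSX1 (-0.31), EYA1 (-0.12), FOXO1 (-0.08) and TBXT (0.21), without ventral anterior libraries for DLX6 (0.14) and PITX3 (0.54), and without ventral posterior libraries for EYA3 (-0.01). With the replicate block 4 members were called between dorsal anterior and dorsal posterior skin (2 without it) and 5 in ventral-most skin (1 without it, and 2 with a pseudocount of 5), and beyond the members named in the text the block changed no call in the comparisons of sides, ends and single locations. DESeq2 called 5 members between dorsal anterior and dorsal posterior skin, 3 in the saddle (1 with limma) and 5 in ventral-most skin. With only the libraries compared, 2 members (5 otherwise) were called between ventral anterior and ventral posterior skin, 0 in the saddle (5 at an unadjusted limma p under 0.05) and 0 for the difference of the anterior-posterior contrasts (7 at an unadjusted p under 0.05). That difference was called in 1 member (2 otherwise) with a pseudocount of 0.5, without the filter and with edgeR. The cause was not tested.

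Leaving out a replicate number gave 4 to 14 members for any difference among locations, 11 to 18 dorsal against ventral, 0 to 3 dorsal anterior against posterior, 1 to 3 ventral anterior against posterior, 0 in the saddle, 0 to 4 in the flank, 0 to 1 in ventral-most skin and 0 for the difference of contrasts. Leaving out 1 library gave 17 to 21, 20 to 22, 2 to 3, 2 to 5, 0 to 1, 1 to 6, 1 to 2 and, for the difference of contrasts, 1 to 3. The shares of all genes called under the settings of this section, apart from the block, are not given here. These counts therefore do not tell whether members were less stable than other genes. At low levels, as in LHX8, LHX9 and TBX20 on the back, a value of a few reads limits how large a fold change can be measured.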

Other observations

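FOXJ2, a forkhead gene that was not called among locations, separated the replicate numbers. It had 21 to 81.7 normalised reads in the 7 libraries of number 3 and 132 to 355 in the 14 libraries of numbers 8 and 11, with no overlap (adjusted p = 5.13e-07 with limma, a test of the number chosen after seeing the data). In that test 12 of the 38 members (31.6%) differed between numbers, against 47.7% of all genes. MEOX1 was among them, with 181, 65.4 and 9.99 normalised reads in saddle libraries 3, 8 and 11, as was TBX15, which was highest in number 11. TBXA2R, set aside as a receptor gene, had 120 ± 56.5 normalised reads in dorsal and 212 ± 91.8 in ventral libraries (log2FC -0.83, SE 0.30, adjusted p = 0.0653).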
